A study of Mus musculus with 84 samples.

Results

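GABA, glycine and metabotropic glutamate signaling was followed in astrocytes through 8 named genes, the transporters Slc6a11, Slc6a9 and Slc7a10, the GABA-A receptor subunits Gabra2, Gabrb1 and Gabrg1, and the metabotropic glutamate receptors Grm3 and Grm5. They were taken by gene symbol from the 48526 genes of a table of experimental autoimmune encephalomyelitis (EAE) and from the 25773 genes of a table of astrocyte subtypes. EAE is an immune attack on myelin that serves as a mouse model of multiple sclerosis. Both tables list all 8 genes, and each gene had the 10 counts in total that were required to enter a fit.

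Astrocytes clear transmitter from the space around synapses and sense it with receptors of their own. GAT-3, the product of Slc6a11, takes up GABA, GlyT1, the product of Slc6a9, takes up glycine, and Asc-1, the product of Slc7a10, exchanges small neutral amino acids such as D-serine and glycine. GABA-A receptors are chloride channels built from alpha, beta and gamma subunits. mGluR3, encoded by Grm3, lowers cyclic AMP, while mGluR5, encoded by Grm5, raises intracellular calcium and is known in astrocytes mainly from young animals.

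The EAE table held 66 libraries of female C57BL/6J mice in 12 groups. They were unimmunized controls (C) and mice immunized at 10 weeks of age with a myelin oligodendrocyte glycoprotein peptide in Freund's adjuvant, with pertussis toxin. Mice were taken at score 1, with a limp tail (E1), at score 4, with complete hind leg paralysis (E4), or in the chronic stage (Ech). Cells negative for CD11B and CD45 and positive for ACSA-2, an epitope of the Atp1b2 product, were sorted by GLAST, the product of Slc1a3. Each stage had hindbrain (cerebellum and brain stem) GLAST-negative and GLAST-positive cells and spinal cord GLAST-negative cells. Libraries numbered 5, 6, 6 and 6 for C, E1, E4 and Ech in hindbrain GLAST-negative cells, 5, 6, 6 and 4 in hindbrain GLAST-positive cells, and 5, 5, 6 and 6 in spinal cord. The subtype table held 3 libraries for each of 5 labelled FVB/N populations of untreated mice and 3 of cultured neonatal C57BL/6J astrocytes. A library could hold pooled RNA, from at most 2 mice.

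EAE libraries held between 1313682 and 4895220 counts and isolated subtype libraries between 416768 and 1269316. Levels are given as CPM, counts scaled to the size of each library. The reads come from the 3′ ends of transcripts and levels are compared for a gene between groups, not between genes. A level of 3 counts or fewer in a library was treated as not distinguishable from 0, which in EAE libraries meant 0.613 to 2.28 CPM depending on depth. Differences were tested with edgeR's quasi-likelihood test over all genes, and a gene was called at a Benjamini-Hochberg adjusted p under 0.05. Intervals of a difference are normal 95% intervals. Overlap of libraries between groups was looked at for the members alone, and its share over all genes was not counted.

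Several libraries stood apart or went against their labels. In the EAE table, 1 spinal cord library at E1 carries a hindbrain region label. The sum of 5 Hox genes, which mark spinal cord, was between 58.9 and 250 CPM in the 5 spinal cord libraries at E1 and at most 2.63 CPM in hindbrain GLAST-negative libraries of that stage, and the library was kept in spinal cord. Among the FVB/N libraries, 12 of 15 carry another population name in the authors' supplementary list of most expressed genes than in the labels. Libraries labelled hindbrain GLAST-negative had 450 ± 41.5 CPM of those Hox genes (SD, n = 3), whereas those labelled spinal cord had 0. In that list the libraries labelled forebrain GLAST-positive are named hindbrain GLAST-negative, those labelled hindbrain GLAST-negative are named spinal cord, those labelled hindbrain GLAST-positive are named forebrain GLAST-positive and those labelled spinal cord are named hindbrain GLAST-positive. Levels and pairs of the FVB/N populations are therefore described by label.

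Slc6a11 lies on chromosome 6 of GRCm38 (chr6:114131241-114249952, plus strand), Slc6a9 on chromosome 4 (chr4:117834506-117875198, plus) and Slc7a10 on chromosome 7 (chr7:35186385-35201114, plus). The GABA-A subunits are neighbours on chromosome 5, with Gabrg1 at chr5:70751047-70842617 (minus), Gabra2 at chr5:70957597-71095849 (minus) and Gabrb1 at chr5:71658113-72149037 (plus). Grm3 is at chr5:9485541-9725170 (minus) and Grm5 at chr7:87584168-88134907 (plus). Slc6a9 overlaps B4galt2 and Ccdc24, Slc7a10 overlaps Lrp3 and Gabrb1 overlaps Gabra4 on the opposite strand. Whether reads were counted by strand is not given in the sources used here, so that reads of these partners could not be told apart.

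Promoters are shown for the 5 genes that fell together in spinal cord during EAE, and for Grm3, which was not called there. Each is the 250 bases before the RefSeq start (GRCm38.p6), written 5′ to 3′ on the strand of the gene, with CG dinucleotides in capitals. The windows are chr6:114130991-114131240 for Slc6a11, chr7:35186135-35186384 for Slc7a10, chr5:71095850-71096099 for Gabra2, chr5:71657671-71657920 for Gabrb1 (the more upstream of 2 windows listed), chr5:70842618-70842867 for Gabrg1 and chr5:9725353-9725602 for Grm3. 
Slc6a11: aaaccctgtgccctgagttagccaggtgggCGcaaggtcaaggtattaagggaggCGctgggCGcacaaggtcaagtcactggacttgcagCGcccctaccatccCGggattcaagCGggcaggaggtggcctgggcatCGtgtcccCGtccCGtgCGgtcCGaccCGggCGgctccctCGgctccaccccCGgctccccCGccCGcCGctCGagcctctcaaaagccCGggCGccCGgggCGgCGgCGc
Slc7a10: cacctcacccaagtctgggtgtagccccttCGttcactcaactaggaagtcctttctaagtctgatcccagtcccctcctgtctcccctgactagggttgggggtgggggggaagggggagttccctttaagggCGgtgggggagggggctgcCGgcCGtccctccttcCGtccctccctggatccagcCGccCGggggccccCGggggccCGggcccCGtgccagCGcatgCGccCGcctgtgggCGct
Gabra2: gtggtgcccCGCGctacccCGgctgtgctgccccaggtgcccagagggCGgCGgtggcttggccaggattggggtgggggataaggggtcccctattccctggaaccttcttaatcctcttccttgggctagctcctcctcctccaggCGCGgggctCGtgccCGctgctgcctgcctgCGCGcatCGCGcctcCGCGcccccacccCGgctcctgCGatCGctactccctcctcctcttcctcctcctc
Gabrb1: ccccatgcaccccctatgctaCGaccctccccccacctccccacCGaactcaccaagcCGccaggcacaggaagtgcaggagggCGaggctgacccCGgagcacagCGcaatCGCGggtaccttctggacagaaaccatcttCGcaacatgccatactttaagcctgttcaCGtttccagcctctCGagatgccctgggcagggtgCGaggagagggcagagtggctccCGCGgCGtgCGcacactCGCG
Gabrg1: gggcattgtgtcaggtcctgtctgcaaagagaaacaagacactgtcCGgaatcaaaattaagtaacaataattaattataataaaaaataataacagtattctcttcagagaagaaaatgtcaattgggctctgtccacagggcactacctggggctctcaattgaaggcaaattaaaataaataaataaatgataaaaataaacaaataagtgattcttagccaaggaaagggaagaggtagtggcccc
Grm3: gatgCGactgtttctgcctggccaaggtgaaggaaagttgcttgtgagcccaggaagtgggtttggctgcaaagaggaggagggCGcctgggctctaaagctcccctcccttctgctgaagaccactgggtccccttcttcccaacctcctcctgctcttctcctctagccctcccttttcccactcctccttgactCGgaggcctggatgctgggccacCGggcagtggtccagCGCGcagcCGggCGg
The CG content of the windows varied among the 5 genes. Slc6a11 had 25 CG dinucleotides in its window, Gabra2 and Gabrb1 had 18 each and Slc7a10 had 14. Gabrg1, the neighbour of Gabra2, had 1 CG and 35.6% GC, against 70% GC for Gabra2. Grm3 had 8 CG dinucleotides. Of all 32851 windows of this length, 92.1% held at least 1 CG, 21.7% held 18 or more and 10.7% held 25 or more.

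In unimmunized mice, Slc6a11 and Gabrb1 ordered the populations differently. The level of Slc6a11 was 10411 ± 1777 CPM in hindbrain GLAST-negative cells, 3960 ± 740 CPM in spinal cord and 1083 ± 413 CPM in hindbrain GLAST-positive cells (SD, n = 5 each). Gabrb1 was at 821 ± 79 CPM, 376 ± 58 CPM and 1065 ± 153 CPM in the same order, with the highest mean in the population where Slc6a11 was lowest. Its hindbrain populations overlapped, with GLAST-positive libraries from 901 CPM and GLAST-negative ones up to 917 CPM, and their difference was not called. Mean levels of Gabrg1, Gabra2 and Slc7a10 lay between 40.7 and 356 CPM in these 3 populations, and those of Slc6a9, Grm3 and Grm5 at 61.9 CPM or less. Grm5 was at 2.08 ± 1.27 CPM in hindbrain GLAST-positive cells, where 2 of 5 libraries had 3 counts or fewer.

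**Figure D1:**
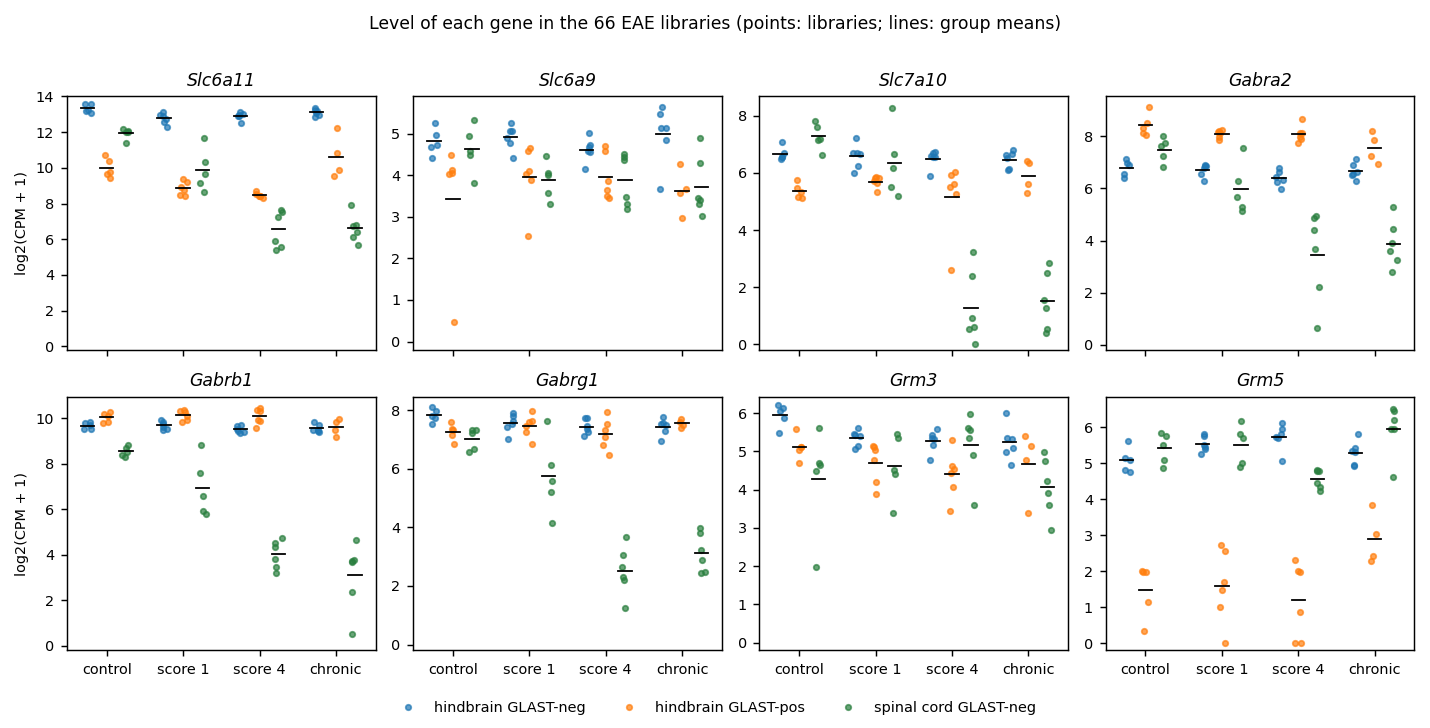
Levels of the 8 genes in the 66 EAE libraries on a log2(CPM + 1) scale, by stage and population, with a point per library and a line per group mean. The spinal cord points of Slc6a11, Slc7a10, Gabra2, Gabrb1 and Gabrg1 drop at E4 and in the chronic stage, while among hindbrain points Slc6a11 in GLAST-positive cells at E4 is the one drop that passed the test.

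The 5 members Slc6a11, Slc7a10, Gabra2, Gabrb1 and Gabrg1 fell to a small part of their control level in spinal cord at E4 and stayed low in the chronic stage. At E4 they were the 5 members called of 8, all lower, where 22.4% of the 23324 genes tested were called in either direction and 12.7% were called lower. The median log2 fold change of the 8 members was -4.03, against 0.0 over all genes. In the chronic stage the same 5 were called, all lower, where 18.7% of genes were called. At E1 Slc6a11, Gabra2 and Gabrb1 were called, all lower, where 8.42% of genes were called and 4.48% were called lower. In sorted bulk samples, fewer cells that express a gene and less RNA per cell cannot be told apart.

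Slc6a11 stood at 4266, 4123, 2682, 4127 and 4601 CPM in the 5 control spinal cord libraries. At E1 it was at 1283, 3265, 397, 562 and 815 CPM. The 6 libraries at E4 ranged from 41.7 to 200 CPM with a median of 104 CPM, and the 6 chronic libraries from 50.7 to 238 CPM with a median of 95.7 CPM. All libraries of E4 and of the chronic stage lay far below the lowest control, and only the second library at E1 reached the range of the controls. The log2 fold change against controls was -1.65 ± 0.38 at E1 (SE, adjusted p = 0.002), -5.12 ± 0.41 at E4 (adjusted p = 3.8e-17) and -5.17 ± 0.41 in the chronic stage (adjusted p = 2.8e-17).

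Slc7a10 was at 223, 142, 98.0, 193 and 146 CPM in the controls. At E4 its median was 0.704 CPM (0 to 8.42), with 4 of 6 libraries at 3 counts or fewer, and in the chronic stage it was 1.66 CPM (0.3 to 6.11), with 2 of 6 libraries at that floor. It was thus close to the detection limit at both stages, with no overlap with the controls. The E1 libraries were at 100, 308, 35.9, 44.2 and 71.4 CPM, so that the second library exceeded every control. The log2 fold change was -0.52 ± 0.42 at E1 (adjusted p = 0.48), -5.83 ± 0.51 at E4 (adjusted p = 2.2e-15) and -5.97 ± 0.51 in the chronic stage (adjusted p = 1e-15).

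All 3 GABA-A subunits followed the same course, and none of their E4 or chronic libraries overlapped the controls. How many of all genes lack such overlap was not counted. Gabra2, an alpha subunit, was at 198, 213, 112, 261 and 151 CPM in the controls, had a median of 16.0 CPM at E4 (0.564 to 30.0) and of 12.5 CPM in the chronic stage (5.88 to 38.1). Its log2 fold change was -3.55 ± 0.39 at E4 (adjusted p = 6.9e-12) and -3.50 ± 0.38 in the chronic stage (adjusted p = 1.2e-11), the smallest fall of the 5 at both stages.

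Gabrb1, a beta subunit, was at 456, 331, 316, 414 and 366 CPM in the controls and at 16.1 CPM at E4 as a median (8.3 to 25.7), and 12.1 CPM in the chronic stage (0.454 to 24.5). The fall was -4.51 ± 0.36 at E4 (adjusted p = 5.3e-17) and -5.05 ± 0.37 in the chronic stage (adjusted p = 1.3e-18). For Gabrg1, a gamma subunit, the controls were at 160, 147, 93.7, 158 and 101 CPM, and the medians were 4.64 CPM at E4 (1.35 to 11.7) and 7.41 CPM in the chronic stage (4.47 to 14.6). Its log2 fold change was -4.54 ± 0.36 (adjusted p = 5.3e-17) and -3.92 ± 0.35 (adjusted p = 3.1e-15), in that order.

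At E1 the subunits were spread widely. Gabrb1 was at 195, 460, 54.1, 60.3 and 96.7 CPM and Gabra2 at 77.2, 185, 34.4, 38 and 49.5 CPM. The second library exceeded every control for Gabrb1 and lay within their range for Gabra2, and the other 4 lay below all controls for both genes. The log2 fold changes at E1 were -1.12 ± 0.34 for Gabrb1 (adjusted p = 0.023), -1.29 ± 0.37 for Gabra2 (adjusted p = 0.018) and -0.84 ± 0.33 for Gabrg1 (adjusted p = 0.094). Without that second E1 library, 5 members were called at E1. Without the third, the fourth or the fifth, 1 was called, which was Slc6a11. Gabrb1 was not called without the first control library (adjusted p = 0.063), nor Gabra2 without the fourth (adjusted p = 0.067).

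The 3 remaining members were not called at any stage in spinal cord. Slc6a9 was at 21.3, 29.9, 22.9, 38.9 and 13.1 CPM in the controls and had a median of 14.8 CPM at E4 (8.09 to 21.8), with a log2 fold change of -0.76 (interval -1.55 to 0.03, adjusted p = 0.16). Grm3 was at 2.97, 24.9, 48.2, 21.4 and 23.9 CPM in the controls and had a median of 43.3 CPM at E4 (11.2 to 61.9), with a log2 fold change of 0.70 (interval -0.04 to 1.43, adjusted p = 0.17). Both genes overlapped their controls. Grm3 was called at E4 without the third control library (log2 fold change 1.10, adjusted p = 0.038). In the chronic stage the log2 fold changes were -0.87 for Slc6a9 (adjusted p = 0.12) and -0.47 for Grm3 (adjusted p = 0.42), and Slc6a9 was called without the third chronic library (-1.24, adjusted p = 0.03).

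Grm5 was at 44.6, 53.1, 28.4, 57.1 and 33.2 CPM in the controls, at 23.6 CPM at E4 as a median (17.8 to 27.2) and at 67.5 CPM in the chronic stage (23.6 to 91.1). Every E4 library lay below every control, and in the chronic stage 5 of 6 lay above all controls. The log2 fold change was -0.91 (interval -1.69 to -0.12, adjusted p = 0.092) at E4 and 0.61 (interval -0.17 to 1.40, adjusted p = 0.29) in the chronic stage. DESeq2's Wald test called the E4 difference (adjusted p = 0.032).

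**Figure D2:**
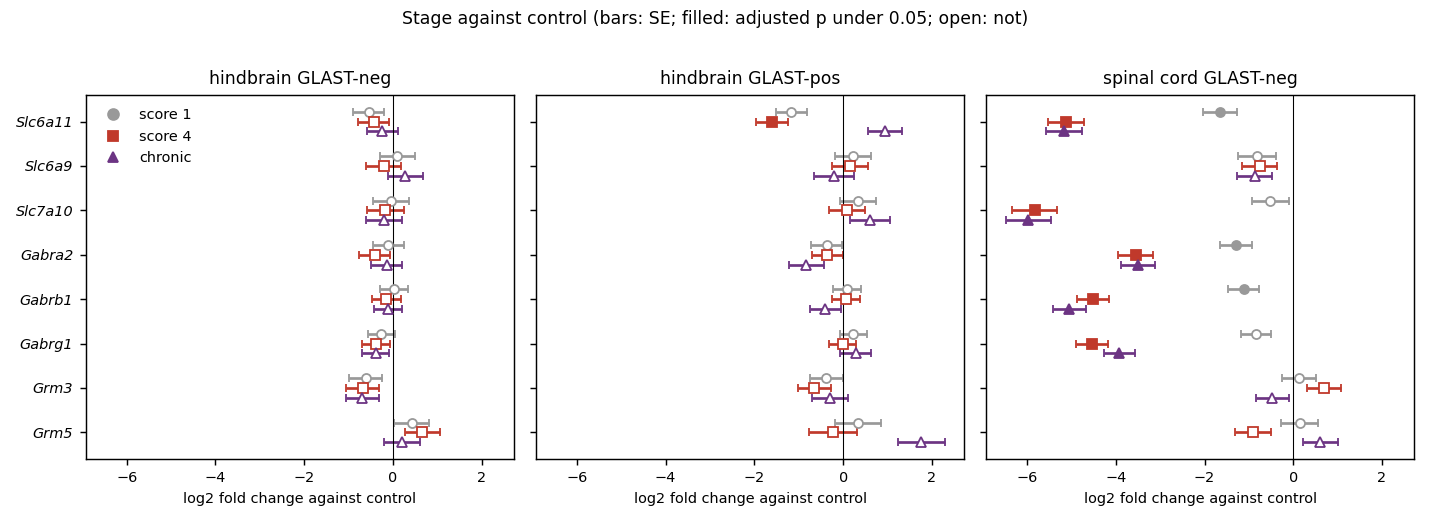
Log2 fold change of each gene against the controls of the same population at E1, E4 and in the chronic stage, with bars of 1 SE and filled symbols for an adjusted p under 0.05. In spinal cord 5 genes lie between -3.50 and -5.97 at E4 and in the chronic stage, while in hindbrain the only filled symbol is Slc6a11 in GLAST-positive cells at E4, at -1.61.

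Markers of astrocytes moved with these genes in spinal cord. Of 10 astrocyte markers, 8 were called lower at E4, with log2 fold changes between -4.93 for Gja1, the gap junction protein connexin 43, and -2.53 for Slc1a3. Atp1b2, which carries the epitope of the sort, fell from 6598 ± 926 to 357 ± 209 CPM (SD, log2 fold change -4.21 ± 0.31). Gfap rose by 1.10 ± 0.34 and S100b was at 0.04 ± 0.19. The sum of the 10 markers was between 13071 and 18366 CPM in controls, between 4317 and 22252 CPM at E1, between 2430 and 3930 CPM at E4 and between 3500 and 5976 CPM in the chronic stage, and no marker was at the floor in all libraries of a group.

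Other cell types moved as well. The sum of 10 oligodendrocyte markers, also abundant in control spinal cord, was between 13915 and 40163 CPM in controls, between 25542 and 58446 CPM at E1, between 28581 and 72647 CPM at E4 and between 24797 and 39918 CPM in the chronic stage. Summed oligodendrocyte precursor markers went from 635 ± 214 CPM in controls to 1448 ± 263 CPM at E4 and 2447 ± 701 CPM in the chronic stage (SD). The sum of 12 myeloid markers was between 14.4 and 42.6 CPM in controls and between 130 and 4673 CPM at E4, where the second library had the highest sum. Of 7 neuron markers, 6 fell at E4, with log2 fold changes between -2.42 for Rbfox3 and -1.67 for Snap25, and 1 rose, the tubulin gene Tubb3, from 17.4 ± 15.4 to 504 ± 88.6 CPM (4.84 ± 0.58, adjusted p = 2.4e-10). Summed lymphocyte, endothelial and ependymal markers were at most 69.1 CPM in every spinal cord library. The 5 Hox genes that mark spinal cord summed to 397 ± 74.8 CPM in controls and 56.2 ± 19.9 CPM at E4.

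The third control library had the lowest astrocyte sum and the lowest Slc6a11, and the second E1 library had the highest astrocyte sum of that stage and the highest Slc6a11, Slc7a10, Gabra2, Gabrb1 and Gabrg1. The second E4 library, with the highest myeloid sum, lay within the range of the other E4 libraries for Slc6a11. The part of these shifts in the fall of the 5 members was not tested. Leaving out any 1 library of the controls, of E4 or of the chronic stage kept all 5 called in both stages, as did DESeq2.

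**Figure D3:**
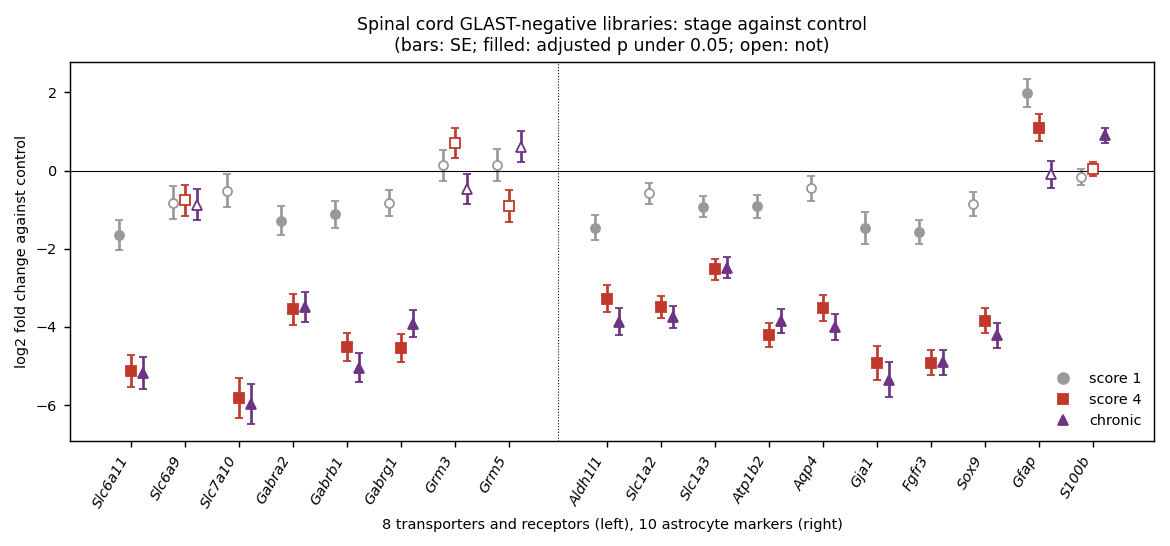
Log2 fold change against controls in spinal cord for the 8 genes (left) and 10 astrocyte markers (right), with bars of 1 SE and filled symbols for an adjusted p under 0.05. The falls of 5 of the 8 genes at E4, between -3.55 and -5.83, lie beside falls of 8 markers between -2.53 and -4.93, while Slc6a9, Grm3, Grm5 and S100b are open at that stage.

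Stage and library number were partly entangled in spinal cord. The labels number the libraries with an S number whose meaning is not given in the sources used here. Control libraries had numbers between 60 and 83, and those at E4 between 26 and 69. Only 1 library at E4 had a number of 57 or more, so that S number and stage cannot be told apart there. That library, with number 69, had 45.7 CPM of Slc6a11, 0.519 of Slc7a10, 11.9 of Gabra2, 8.3 of Gabrb1 and 3.63 of Gabrg1. Each value lay below every control library. With libraries of number 57 or more alone, 4 of the 6 chronic libraries were left, and 5 members were again called lower in that stage.

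In hindbrain no change of this kind was called. No member passed the test in hindbrain GLAST-negative cells at E1, E4 or the chronic stage, by edgeR or by DESeq2, and none had an unadjusted p under 0.05 in edgeR. In these 3 comparisons 0.677%, 0.755% and 0.197% of all genes were called. Slc6a11, for example, had medians of 9746, 7164, 7800 and 8930 CPM at C, E1, E4 and Ech, with log2 fold changes between -0.55 ± 0.35 and -0.24 ± 0.35 (SE). Gabrb1 had medians of 827, 823, 716 and 720 CPM.

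Hindbrain GLAST-positive cells differed from their controls in Slc6a11 at E4. It was at 879, 696, 1343, 820 and 1677 CPM in controls and at 343 CPM at E4 as a median (318 to 414), so that no E4 library reached the controls. The log2 fold change was -1.61 ± 0.36 (SE, adjusted p = 0.0035), in a comparison where 2.18% of genes were called. At E1 the median was 465 CPM (345 to 674) and the log2 fold change -1.17 ± 0.35 (adjusted p = 0.071). In the chronic stage its 4 libraries lay between 748 and 4766 CPM. Grm5 was at 1.23, 3.03, 2.94, 0.254 and 2.95 CPM in controls and between 3.90 and 13.4 CPM in the 4 chronic libraries, without overlap (log2 fold change 1.76 ± 0.53, adjusted p = 0.067, called by DESeq2 with an adjusted p of 0.0081). No member was called at E1, where 1.58% of genes were called and DESeq2 called none, with 1 member at an unadjusted p under 0.05. Without a filter on low counts, edgeR called Slc6a11 at E1 (-1.18, adjusted p = 0.01). None was called in the chronic stage, where 1.43% of genes were called, DESeq2 called 1 and 3 had an unadjusted p under 0.05. There edgeR called Grm5 without the filter (1.77, adjusted p = 0.031) or without the third chronic library (1.97, adjusted p = 0.042).

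The response of spinal cord differed from that of hindbrain for the 5 genes in edgeR's test. The difference between the 2 log2 fold changes against controls was tested as an interaction. At E4 it was -4.69 ± 0.53 for Slc6a11 (adjusted p = 1.1e-10), -5.67 ± 0.65 for Slc7a10 (adjusted p = 2.4e-10), -3.15 ± 0.52 for Gabra2 (adjusted p = 3.8e-06), -4.36 ± 0.48 for Gabrb1 (adjusted p = 4.2e-11) and -4.16 ± 0.47 for Gabrg1 (adjusted p = 1.7e-10). Of all genes, 8.56% were called in that test. DESeq2 and limma-voom with the specimen as a random block also called Grm5 at E4 (-1.58 and -1.50, adjusted p = 0.017 and 0.039), and edgeR called Grm3 without the third control or the second E4 library of spinal cord (1.79 and 1.57, adjusted p = 0.022 and 0.043). In the chronic stage the same 5 were called, where 7.2% of genes were called. At E1 none was called by edgeR or DESeq2, 3 had an unadjusted p under 0.05 and 0.214% of genes were called. Limma-voom called Gabrb1 at E1 (-1.59, adjusted p = 0.027), and without the second E1 library of spinal cord edgeR called Slc6a11, Gabra2, Gabrb1 and Gabrg1 (adjusted p between 0.0035 and 0.048). Between GLAST-positive and GLAST-negative hindbrain cells no difference in response was called for any member by edgeR, DESeq2 or limma-voom, with 0, 1 and 2 members at an unadjusted p under 0.05 in edgeR at E1, E4 and the chronic stage and 0.00857%, 0.00857% and 0.06% of genes called.

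Regional differences between the sorted isolates were already present in unimmunized mice. Their make-up differed too, and its part in these differences was not tested. Oligodendrocyte markers summed to 21173 ± 10831 CPM in control spinal cord and 2973 ± 1373 CPM in control hindbrain GLAST-negative cells (SD, n = 5 each). Astrocyte markers summed to 16502 ± 2004 and 23777 ± 2158 CPM, in that order. Compared with hindbrain GLAST-negative cells, 3 members were called lower in spinal cord, where 5.33% of genes were called and 2.25% were called lower. Slc6a11 differed by -1.39 ± 0.38 (SE, adjusted p = 0.012) and Gabrb1 by -1.13 ± 0.33 (adjusted p = 0.027), both without overlap of the libraries. Gabrg1 did not overlap either and was not called (-0.79 ± 0.32, adjusted p = 0.16). Limma-voom with the specimen as a random block called Gabrg1 lower (-0.81, adjusted p = 0.029). Grm3, at 68.8, 66.2, 73.3, 43.6 and 57.3 CPM in hindbrain, differed by -1.33 ± 0.39 (adjusted p = 0.026) with 1 spinal cord library in the hindbrain range. Slc7a10 and Gabra2 had higher means in spinal cord, at 160 against 102 CPM and at 187 against 113 CPM, and were not called (adjusted p of 0.43 and 0.26). These calls were close to the threshold. Leaving out 1 library ended that of Slc6a11 in 1 of 10 cases (spinal cord library 3), that of Gabrb1 in 5 (hindbrain libraries 3 and 5 and spinal cord libraries 2, 3 and 5) and that of Grm3 in 7 (hindbrain libraries 1, 2 and 3 and spinal cord libraries 1, 2, 4 and 5). Adjusted p-values of the lost calls were between 0.051 and 0.11 by edgeR. In untreated FVB/N mice, no member was called by edgeR in the pair that the authors' list names spinal cord and hindbrain GLAST-negative. Only 1.4% of all genes were called in that pair. There Slc6a11 differed by 0.17 ± 0.23, Gabrb1 by -0.14 ± 0.22 and Grm3 by 0.18 ± 0.39 (SE). In the pair so labelled, 3 members were called lower, where 7.47% of genes were called, and Gabrb1 and Grm3 were not among them.

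At E4 and in the chronic stage the 5 genes that fell in spinal cord were lower there than in hindbrain. For Slc6a11, Gabrb1 and Gabrg1 the control difference had the same direction, whereas for Slc7a10 and Gabra2 it had the opposite direction and was not called. At E4 spinal cord minus hindbrain was -6.09 ± 0.42 for Slc6a11, -5.02 ± 0.50 for Slc7a10, -2.41 ± 0.37 for Gabra2, -5.48 ± 0.37 for Gabrb1 and -4.95 ± 0.36 for Gabrg1 on the log2 scale (SE, adjusted p of 1.2e-07 or less). With Grm5 (-1.22 ± 0.39, adjusted p = 0.013), 6 members were called, where 25.6% of genes were called. With only the 1 spinal cord library at E4 that had an S number of 57 or more, assumed to vary like the other groups, Grm5 differed by -1.36 (adjusted p = 0.4). In the chronic stage 7 members were called, where 28.3% of genes were called, all but Grm5, which was at 0.76 ± 0.38 (adjusted p = 0.12). Limma-voom with the specimen as a random block called Grm5 higher in spinal cord there (0.76, adjusted p = 0.02). At E1 the 3 members called were Slc6a11, Gabrb1 and Gabrg1, where 16.3% of genes were called. Slc7a10 had means of 112 CPM in spinal cord and 98.7 CPM in hindbrain at that stage. Grm3 was level at E4, with a difference of 0.04 ± 0.35 (adjusted p = 1.0). Its chronic call ended without the second hindbrain or the second spinal cord library (log2 fold change -0.91 and -0.92, adjusted p = 0.059 and 0.058).

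**Figure D4:**
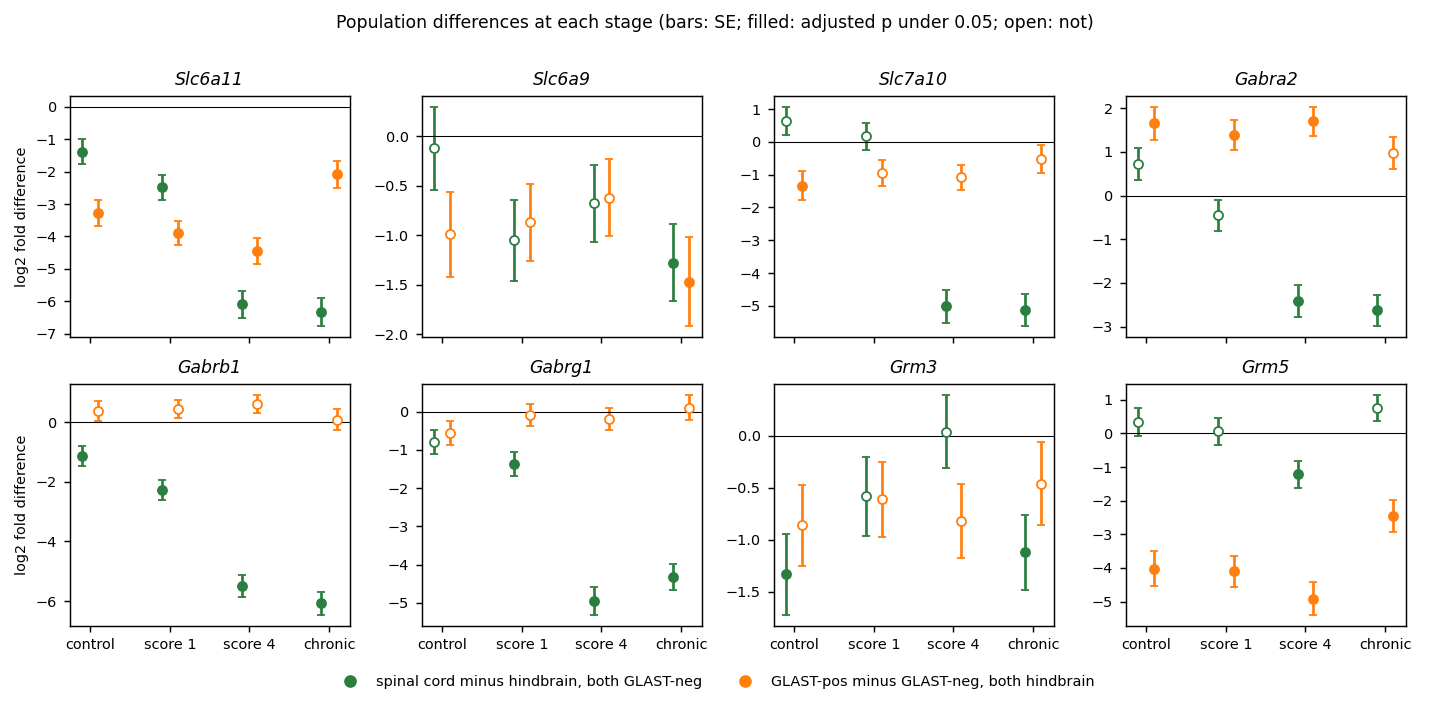
Log2 fold difference of spinal cord from hindbrain (both GLAST-negative, green) and of GLAST-positive from GLAST-negative hindbrain cells (orange) for each gene at each stage, with bars of 1 SE and filled symbols for an adjusted p under 0.05. The green points of 5 genes move down from controls to E4, whereas the orange points of Grm5 stay between -2.46 and -4.91 and those of Gabra2 between 0.97 and 1.70.

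GLAST separated the hindbrain cells by Slc6a11, Gabra2 and Grm5. In controls, 4 members were called, where 13.5% of genes were called. Slc6a11 was lower in GLAST-positive cells, with a log2 fold change of -3.27 ± 0.40 (SE, adjusted p = 2.7e-09), and so was Grm5, at -4.02 ± 0.51 (adjusted p = 5.5e-09). Gabra2 was higher, at 553, 280, 262, 322 and 361 CPM against 93.5, 83.7, 125, 141 and 119 CPM (log2 fold change 1.66 ± 0.38, adjusted p = 0.00086). None of these 3 overlapped between the groups, and the share of all genes without overlap was not counted. Slc7a10 was lower as well (-1.33 ± 0.44, adjusted p = 0.03), a call that was lost without GLAST-negative library 3 or without GLAST-positive library 1, 3 or 5 (adjusted p between 0.054 and 0.069). Slc6a9 was not called by edgeR, but DESeq2 called it lower (-1.05). So did limma-voom with the specimen as a random block (-1.48, adjusted p = 0.03).

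Both low genes stayed low through EAE. Slc6a11 differed by -3.89 ± 0.38 at E1, -4.45 ± 0.39 at E4 and -2.09 ± 0.41 in the chronic stage, and Grm5 by -4.10 ± 0.46, -4.91 ± 0.48 and -2.46 ± 0.48 (SE, adjusted p of 0.00013 or less). Gabra2 was called higher at E1 (1.39 ± 0.34) and E4 (1.70 ± 0.34) and not in the chronic stage (0.97 ± 0.37, adjusted p = 0.074). There it was called by limma-voom with the specimen as a random block (1.0, adjusted p = 0.0048), and by edgeR with filterByExpr (adjusted p = 0.047), without a filter (adjusted p = 0.041) or without the first GLAST-positive library (1.17, adjusted p = 0.037). The members called were 3 at E1, 3 at E4 and 3 in the chronic stage, where Slc6a9 was the third (-1.47 ± 0.45, adjusted p = 0.02), with 17.5%, 14.5% and 12.1% of genes called. Leaving out library 1, 2 or 3 of the chronic GLAST-positive group ended the Slc6a9 call (adjusted p between 0.054 and 0.076). Slc7a10 was at -1.08 ± 0.39 at E4 (adjusted p = 0.052) and was called there by DESeq2 (adjusted p = 0.031). Gabrb1 and Gabrg1 were not called at any stage, though limma-voom with the specimen as a random block called Gabrb1 at E1 and E4 (0.51 and 0.55, adjusted p = 0.0038 and 0.0037).

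Markers of Bergmann glia, the radial astrocytes of the cerebellum, moved with GLAST. The sum of Gdf10, Hopx and Fabp7 was between 2004 and 3525 CPM in control GLAST-positive libraries and between 200 and 337 CPM in control GLAST-negative ones. The first chronic GLAST-positive library had the lowest sum of its group, at 1376 CPM, and the highest Slc6a11, at 4766 CPM. Hindbrain GLAST-negative libraries had S numbers between 25 and 56, while GLAST-positive ones had numbers between 61 and 95. S number, GLAST and cell type therefore cannot be told apart in this comparison, and the same holds for S number and region in controls.

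The other genes of the pathways were counted in 7 lists of 76 genes, 72 of which were tested. In spinal cord at E4, 24 of the 72 were called lower and 1 higher, with a median log2 fold change of -0.67, beside 12.7% of all genes called lower. At E1 17 were lower and 1 higher, beside 4.48% of all genes called lower, and in the chronic stage 20 were lower and none higher, beside 18.7% of all genes called in either direction. In hindbrain GLAST-negative cells edgeR called none of them at any stage, beside 0.677%, 0.755% and 0.197% of all genes. In hindbrain GLAST-positive cells it called none at E1 or E4, beside 1.58% and 2.18% of all genes. There it called 3 in the chronic stage, all higher, 2 of them of the GABA handling list. Of all genes, 1.24% were called higher in that comparison. In the same comparison 8 of 10 oligodendrocyte markers and 4 of 7 neuron markers were also called higher. These lists, like the members, were chosen with earlier results of these data known, so that their counts are a description.

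GABA handling was the list with most genes called, with 7 of 10 lower at E4. Slc6a13, a GABA transporter and paralog of Slc6a11, was at 0 counts in all control and E4 libraries of spinal cord. Slc32a1, the vesicular transporter of inhibitory neurons, fell by 3.99 ± 0.64 and Gad2, a GABA-synthesizing enzyme, by 2.92 ± 0.76 on the log2 scale, both from low levels of 16.6 and 4.23 CPM, beside the fall of neuron markers given above. Of the 14 other GABA-A subunits tested 2 were lower, a share near the 12.7% of all genes, among them Gabra4 (-3.16 ± 0.35, 27.4 to 2.89 CPM). In the GABA-B list 2 of 5 were lower, Gabbr2 (-2.48 ± 0.41) and the auxiliary subunit gene Kctd12b (-2.32 ± 0.40), while Gabbr1 was at 420 ± 63.7 CPM in controls and 484 ± 199 CPM at E4 (adjusted p = 0.51).

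Glycine and serine genes split. Of 13 genes of glycine receptors and transport, 4 were lower, led by Slc38a3, a glutamine transporter (-4.58 ± 0.32), and Slc1a4, a transporter of neutral amino acids (-3.72 ± 0.29). Slc3a2, the heavy chain with which Asc-1 reaches the membrane, fell from 623 ± 111 to 158 ± 31.5 CPM (SD, log2 fold change -1.98 ± 0.22). Among 11 genes of serine and glycine metabolism, Psat1, an enzyme of serine synthesis, was the only one called higher in the 7 lists, from 314 ± 158 to 873 ± 205 CPM (1.48 ± 0.26, adjusted p = 5e-06). Dao, which degrades D-serine, fell by 4.48 ± 0.48, from 216 to 9.71 CPM, and Amt of the glycine cleavage system by 1.83 ± 0.37.

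Glutamate genes fell in part. In the list of other metabotropic receptors and effectors 4 of 14 were lower, led by Plcb1 (-2.64 ± 0.29) and Homer2 (-2.32 ± 0.29), which couple to mGluR5. Of 5 genes of glutamate uptake and breakdown 3 were lower, among them the transporters Slc1a2 (-3.48 ± 0.28) and Slc1a3 (-2.53 ± 0.27), which are also in the astrocyte marker list. In hindbrain controls, Gabra4 was higher in GLAST-positive than in GLAST-negative cells, at 174 ± 14.8 against 78.4 ± 17.6 CPM (SD, log2 fold change 1.15 ± 0.30, adjusted p = 0.0046).

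Over the 12 EAE groups the members fell into different patterns. Group means of log2(CPM + 1) of Gabrb1 and Gabrg1 had a Pearson correlation of 0.97, Gabra2 correlated with them at 0.92 and 0.89, and Slc6a11 with Slc7a10 at 0.86. Gabra2 and Grm5 were opposed at -0.63. These values describe 12 points that share libraries and depth. Among the 10972 genes whose mean reached 5 CPM, those most like Gabrb1 were Gsta4, Ttyh1 and Acsbg1 (r = 0.996 each), and those most like Gabrg1 were Tril (r = 0.993), Slc4a4 and Gja1 (r = 0.992 each). Sfrp5, Kcnn3 and Ttc19 were nearest to Slc6a11 (r between 0.991 and 0.995), Sdc2, Slc39a12 and Entpd2 to Slc7a10 (0.967 to 0.973), and Lgr6, Glud1 and Frem1 to Gabra2 (0.973 to 0.977). For Slc6a9 the nearest were Gramd1a, Kif1c and Gm37274 (0.952 to 0.977), for Grm5 Abcg2, Col11a2 and Sall1 (0.972 to 0.977), and for Grm3 Calcoco1, Map3k2 and Paqr4 (0.901 to 0.905).

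In the FVB/N libraries of untreated mice, Grm3 divided the populations most clearly. It was at 158, 157 and 184 CPM in libraries labelled forebrain GLAST-negative and at 175, 218 and 216 CPM in those labelled hindbrain GLAST-positive, which the authors' list names forebrain GLAST-positive. The other 3 populations had between 19.2 and 56 CPM, and no library of theirs reached these 2. All 6 pairs across this division were called, with log2 differences between 1.95 ± 0.36 and 2.55 ± 0.37 in favour of the 2 populations (SE, adjusted p of 4.8e-05 or less). Under the names of the authors' list these are the 2 forebrain populations against hindbrain and spinal cord.

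Gabra2 had the opposite division. It was at 104, 121 and 76.9 CPM and at 128, 118 and 67.4 CPM in those 2 populations and between 196 and 442 CPM in every library of the other 3. Again all 6 pairs were called, with absolute log2 differences between 1.05 ± 0.30 and 1.64 ± 0.30 (adjusted p of 0.027 or less). The calls of libraries labelled forebrain GLAST-positive against the 2 low populations ended in 4 of 6 cases each when 1 library was left out (adjusted p between 0.053 and 0.34).

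**Figure D5:**
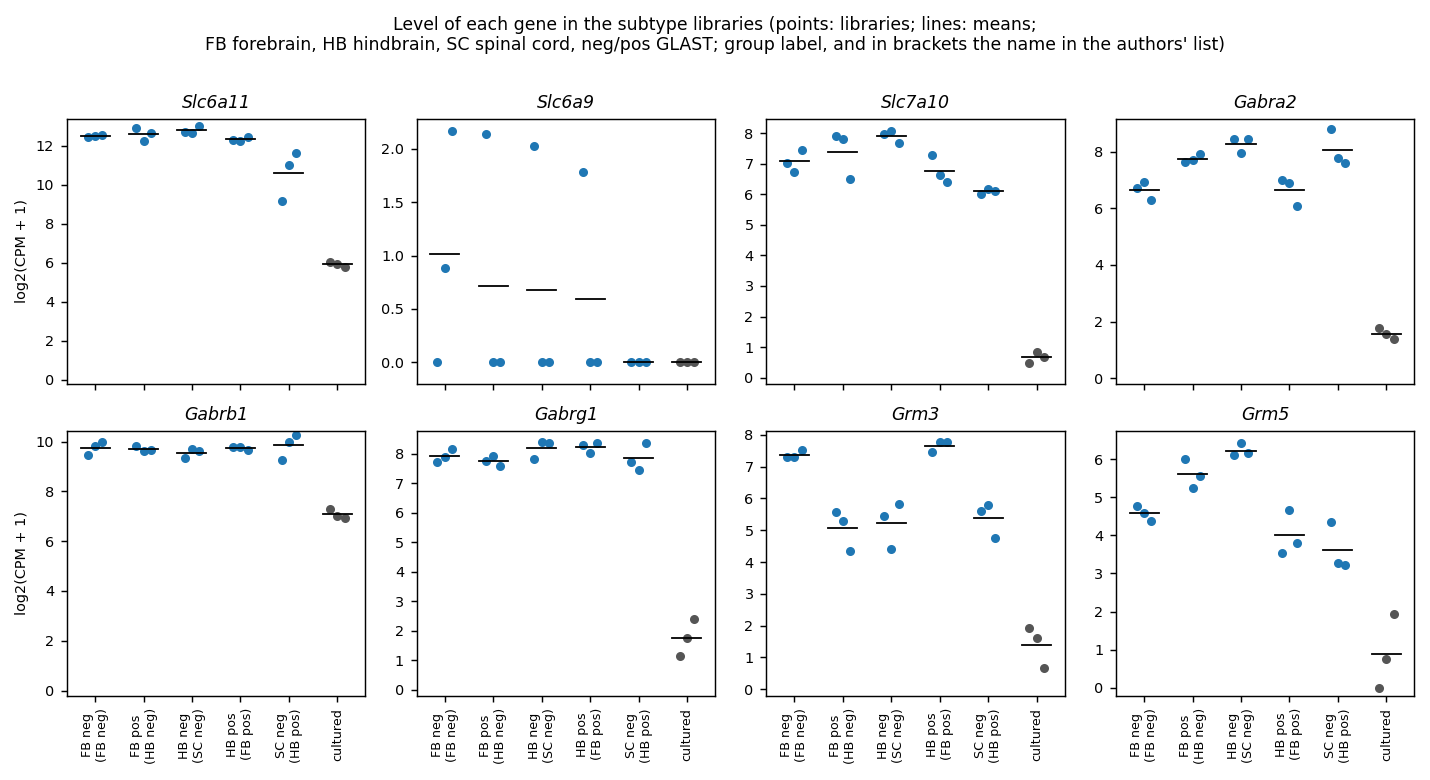
Levels of the 8 genes in the 15 isolated FVB/N libraries and 3 cultured libraries on a log2(CPM + 1) scale, with a point per library, a line per mean, the label of each group and, in brackets, its name in the authors' list. Grm3 is high in 2 populations (157 to 218 CPM) that are low in Gabra2 (67.4 to 128 CPM), and the cultured libraries lie below all isolated libraries for 7 genes.

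Slc6a11 was lowest in libraries labelled spinal cord, which the authors' list names hindbrain GLAST-positive, at 582, 2047 and 3204 CPM. The other 12 libraries had between 4788 and 8272 CPM, and all 4 pairs were called, with log2 differences between -1.87 ± 0.24 and -1.41 ± 0.23 (SE, adjusted p of 2.7e-06 or less). Slc7a10 and Grm5 were also lowest there, at 67.9 ± 3.85 and 12.1 ± 6.23 CPM (SD, n = 3), and highest in libraries labelled hindbrain GLAST-negative, which the list names spinal cord, at 243 ± 34 and 74 ± 9.24 CPM. Between these 2 populations Slc7a10 differed by -1.84 ± 0.32 (adjusted p = 1.1e-05) and Grm5 by -2.62 ± 0.57 (adjusted p = 0.00062), and both without overlap of the libraries. Of the other pairs, Slc7a10 was called lower in libraries labelled spinal cord than in both populations labelled forebrain, and lower in those labelled hindbrain GLAST-positive than GLAST-negative. Grm5 was called lower in libraries labelled spinal cord than in those labelled forebrain GLAST-positive, and lower in those labelled hindbrain GLAST-positive than GLAST-negative. The Slc7a10 call against forebrain GLAST-negative ended with DESeq2 (adjusted p = 0.065), with its size factors in edgeR (adjusted p = 0.054) and with filterByExpr (adjusted p = 0.066). Leaving out 1 library ended these Slc7a10 calls in 4 of 6 cases for 2 of the 3 pairs and those of Grm5 in 2 of 6 cases for each. The libraries labelled spinal cord also had 3986 ± 279 CPM of the Bergmann glia markers and 10163 ± 799 CPM of Slc1a3, the highest of the 5 populations. Low Slc6a11 and low Grm5 beside high Bergmann glia markers was also found in hindbrain GLAST-positive cells of the EAE table, whose libraries came from another strain.

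Gabrb1 and Gabrg1 did not separate the populations. Means of Gabrb1 lay between 757 and 955 CPM and those of Gabrg1 between 215 and 301 CPM, and no pair was called. Slc6a9 had 3 counts or fewer in all 15 libraries, or at most 3.5 CPM, whereas its means in the 12 EAE groups were between 11.9 and 33.4 CPM. The floor of 3 counts in the isolated libraries, 2.36 to 7.2 CPM, lies below those means. The tables were normalized separately, and strain and the making of the counts may differ together between them and cannot be told apart. Over the 10 pairs of labelled populations, between 0 and 4 members were called, 4 in libraries labelled hindbrain GLAST-positive against hindbrain GLAST-negative, where 4.29% of 14957 genes were called, and 4 in those labelled spinal cord against forebrain GLAST-negative, where 5.74% were called. Against libraries labelled forebrain GLAST-positive, hindbrain GLAST-negative and hindbrain GLAST-positive, those labelled spinal cord differed in 3 members each, with 4.11%, 7.47% and 5.78% of genes called. In 3 pairs, 2 members were called, and these were forebrain GLAST-positive or hindbrain GLAST-negative against forebrain GLAST-negative (1.32% and 2.78% of genes called) and hindbrain GLAST-positive against forebrain GLAST-positive (3.03%). No member was called between the libraries labelled hindbrain GLAST-positive and forebrain GLAST-negative, or between those labelled hindbrain GLAST-negative and forebrain GLAST-positive, by edgeR or DESeq2, nor had any an unadjusted p under 0.05 in edgeR, where 0.181% and 1.4% of genes were called.

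Cultured neonatal astrocytes were low in most of these genes. Compared with the mean of the 5 isolated populations, 7 of 8 members were called lower, where 9.79% of 17126 genes were called lower and the median log2 fold change of all genes was 0.431. Slc6a11 was at 65.6, 60.6 and 53.9 CPM (log2 fold change -6.36 ± 0.34, SE, adjusted p = 1.5e-19) and Slc7a10 at 0.398, 0.8 and 0.601 CPM (-7.56 ± 0.45, adjusted p = 6.4e-18), with 2 of 3 libraries at 3 counts or fewer. Gabra2 and Gabrg1 were at 1.98 ± 0.394 and 2.60 ± 1.52 CPM (SD, n = 3), with log2 fold changes of -6.55 ± 0.38 and -6.54 ± 0.36.

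Gabrb1 had the smallest called difference, at 157, 127 and 121 CPM, with a log2 fold change of -2.69 ± 0.22 (adjusted p = 1.3e-13). Grm3 was at 2.78, 2.06 and 0.601 CPM (-5.35 ± 0.44) and Grm5 at 0, 0.686 and 2.80 CPM (-4.41 ± 0.62). Slc6a9 had no count in any cultured library. No cultured library reached the range of the isolated libraries for any of the 7 genes, and the share of all genes without overlap was not counted. Strain, age, brain region, sorting, RNA extraction and culture differ together between these groups and cannot be told apart. The cultures were made from cerebrum, while the isolated populations came from forebrain, hindbrain and spinal cord.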

How the data were processed

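The files hold read counts per gene that the authors made from 3′ end libraries (QuantSeq 3′ FWD) with HISAT 0.1.5, SAMtools and HTSeq 0.6.1p1 in union mode on GRCm38, and these deposited counts are whole and not normalized. Libraries were grouped by their labels. Counted by the first number in each label, the 66 EAE libraries carry 33 specimen numbers, each on 1 to 3 libraries. Some labels hold a second number, which was not used here or in the specimen block. No source ties a library to its animals, so that p-values measure the spread between libraries.

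CPM was computed here with TMM scaling. Differences were tested two-sided with edgeR 4.0.16 (R 4.3.3), quasi-likelihood test, in 1 fit per table over genes with at least 10 counts in total (23324 in the EAE table, 14957 in isolated FVB/N libraries, 17126 with culture), without covariates, and p-values were adjusted over all genes of a fit. A pseudocount of 1 CPM was added for log2 levels in the pattern search and plots. The same scripts were tested on simulated data. The members and gene lists were chosen with earlier results of these data known. Named were all 8 members, the 2 largest called rises and falls of each pathway list in spinal cord at E4, paralogs and partners (Slc6a13, Gabra4, Slc3a2) and, for each member, the 3 genes with the most similar group means. Gabbr1 and Tubb3 were named after their values were seen. Some genes that the rule names are not reported here. Promoter sequences and locations are from RefSeq and the GRCm38 annotation. Protein sequences and a promoter window of Grm5 were not analysed here.

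EAE libraries had a median of 2936680 counts, isolated libraries of 907710 and cultured libraries between 2183464 and 8188074. The floor of 3 counts, which covers counting error only, was between 2.36 and 7.2 CPM in isolated and between 0.366 and 1.37 CPM in cultured libraries. Alternatives were DESeq2 1.42.0, its size factors, other filters, the replicate number as a block, limma-voom 3.58.1 with specimen as a random block, spinal cord libraries with S numbers of 57 or more, the group names of the authors' list, and each library left out. Libraries with the same replicate number did not deviate together, so replicate numbers were not taken as a pairing. Their mean correlation of deviations was -0.00436 against 0.000974 for other pairs in the EAE table, and -0.00654 against 0.00327 in FVB/N mice. The replicate number is not the specimen number, so this does not show whether libraries of 1 specimen vary together. For libraries with the same specimen number, limma-voom estimated a correlation of 0.038. Matplotlib 3.10.9 drew the figures.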

Additional observations from a re-analysis of the deposited data

Results flagged for a closer look

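Among 96 groups of 4 to 6 EAE libraries, 6 held a library far from the others of its group, where chance gives about 1 in 20 groups, or 4.8. In spinal cord, the third control library was lowest for Slc6a11 (2682 CPM, with the next at 4123 CPM), the second chronic library was highest for Slc6a11 (238 CPM, next 108 CPM) and the second E1 library was highest for Slc7a10 (308 CPM, next 100 CPM) and Gabra2 (185 CPM, next 77.2 CPM). In hindbrain, the first E4 GLAST-negative library was lowest for Slc7a10 (58.2 CPM, next 92.4 CPM) and the second E4 GLAST-positive library was highest for Gabra2 (403 CPM, next 278 CPM).

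Spinal cord and hindbrain GLAST-negative cells differed in their response for 5 genes, by an interaction term in edgeR. At E4 the difference in log2 fold change was -4.69 ± 0.53 for Slc6a11, -5.67 ± 0.65 for Slc7a10, -3.15 ± 0.52 for Gabra2, -4.36 ± 0.48 for Gabrb1 and -4.16 ± 0.47 for Gabrg1 (SE). In the chronic stage it was -4.94 ± 0.53 for Slc6a11 (adjusted p = 2.5e-11), -5.77 ± 0.65 for Slc7a10 (adjusted p = 1.3e-10), -3.36 ± 0.52 for Gabra2 (adjusted p = 9.9e-07), -4.94 ± 0.48 for Gabrb1 (adjusted p = 1e-12) and -3.53 ± 0.46 for Gabrg1 (adjusted p = 1.1e-08). Astrocyte markers fell in the same spinal cord libraries, and their part in these differences was not tested.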

How the results depend on the processing

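Of 86 called differences of members, DESeq2 kept 85 (all but Slc7a10 in libraries labelled spinal cord against forebrain GLAST-negative), edgeR with DESeq2 size factors 85, filterByExpr 84, no filter 86 and the replicate block 86, and the replicate block moved no count by over 1.5 times. The block added 1 call, Slc7a10 in GLAST-positive against GLAST-negative cells at E4 (log2 fold change -1.14, adjusted p = 0.036). For the 4 GLAST comparisons limma-voom with specimen as a random block made 20 calls of members in place of 13, and the cause was not tested. Leaving out each library in turn gave between 1 and 5 members called at E1 in spinal cord, 5 to 6 at E4, 5 to 6 in the chronic stage, 1 to 3 between the regions in controls and 3 to 4 between GLAST populations in controls. Over all comparisons of a kind it gave 12 to 16 calls of stage, 17 to 20 of region, 12 to 14 of GLAST, 10 to 14 of response, 20 to 23 of FVB/N pairs and 7 to 7 in culture.

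Under the names of the authors' list, 18 FVB/N differences that were called by label or by list changed sign, because the libraries change places. Sign changes of differences called under neither naming were not counted. The log2 differences then were, for forebrain GLAST-positive minus GLAST-negative, 0.29 (Grm3); for hindbrain GLAST-negative minus forebrain GLAST-positive, -2.55 (Grm3); and for hindbrain GLAST-positive minus forebrain GLAST-negative, -1.95 (Grm3). Hindbrain GLAST-positive minus forebrain GLAST-positive was 1.45 (Gabra2) and -2.23 (Grm3), and minus hindbrain GLAST-negative it was 0.39 (Gabra2). Spinal cord minus forebrain GLAST-negative was 0.28 (Slc6a11) and 0.83 (Slc7a10), and minus forebrain GLAST-positive 0.46 (Slc6a11), 1.11 (Slc7a10), -2.37 (Grm3) and 2.22 (Grm5). Spinal cord minus hindbrain GLAST-negative was 0.17 (Slc6a11), 0.41 (Slc7a10) and 0.60 (Grm5), and minus hindbrain GLAST-positive 1.87 (Slc6a11), 1.84 (Slc7a10) and 2.62 (Grm5). Depth limits Slc7a10 in spinal cord during EAE and Grm5 in hindbrain GLAST-positive cells, where many libraries had 3 counts or fewer.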
